A study of Mus musculus with 10 samples.

Results

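Markers of 3 retinal cell classes other than ganglion cells were followed through 10 libraries made from sorted retinal ganglion cells. The 38 genes were taken from the table by symbol and made up 15 markers of bipolar cells, 13 of Muller glia and 10 of progenitors and the cell cycle, out of 23258 gene symbols in the table. All 38 were present in it. The libraries came from C57BL/6 mice at postnatal day 6. Wild-type libraries 1 to 5 were from Hb9-GFP mice and knockout libraries 1 to 5 from Satb1-/-Hb9-GFP mice, so both genotypes carried the reporter, a green fluorescent protein under Hb9 control by which cells were gated. Each library was prepared from about 1000 gated cells after amplification of the cDNA, and the 5 replicates of a genotype were from separate litters, per the design text. Which cells, other than ganglion cells, carry the reporter is not stated in the labels.

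Bipolar cells are the interneurons that pass signals from photoreceptors to ganglion cells. Muller glia span the retina and recycle glutamate and retinoids. Both classes arise last from dividing retinal progenitors, and in the first postnatal week bipolar cells and Muller glia are still being made while ganglion cells have long left the cell cycle. Cells of these classes are therefore likely in the retina from which the cells were sorted. No unsorted retina was among the 10 libraries, so the level of each marker there at this age is unknown. The values below describe how much of each transcript was present in the sorted material. In such bulk libraries, fewer cells of a type and less RNA per cell cannot be told apart.

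The sorted material had the ganglion cell markers in every library. All 12 genes of a ganglion cell list (among them Rbpms, Pou4f1, Slc17a6 and Nefl) stood at 1 TPM or more in all 10 libraries, and they summed to 18660 to 103700 TPM (transcripts per 1000000, a level scaled for transcript length and library total). Wild-type 5, knockout 4 and knockout 5 stood apart from the rest on the first principal component, which held 32.9% of the variance (scores of 88 to 148.9, against at most -14.2). Wild-type 4 stood apart on the second, which held 13% (-145, against 6.9 to 43.5). The ganglion cell markers were uneven between libraries. In wild-type 5, knockout 4 and knockout 5, Slc17a6 was at 67.8, 96.7 and 55.2 TPM (176 to 726 TPM elsewhere). Pou4f1 was at 37.4, 72.7 and 39.6 TPM there (194 to 372 TPM elsewhere). Pou4f2, Isl1 and Stmn2 were also lower in those libraries than in any other, whereas Thy1, Gap43 and Tubb3 were higher. Satb1 itself ran from 38.6 to 414 TPM in wild-type and from 24.1 to 170 TPM in knockout libraries. The genotypes overlapped. The labels do not say which part of the gene is missing, so this level is no check of the genotype. Library depth is unknown, because TPM does not keep it. A listed 0 need not mean absence, since 8 of the 1100 genes whose median reached 100 TPM were at 0 somewhere.

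As a whole the 38 markers were a small part of each library. They summed to 735.5 TPM, 477 TPM, 619 TPM, 944 TPM and 357 TPM in wild-type libraries 1 to 5, and to 498 TPM, 808 TPM, 385 TPM, 486 TPM and 2529 TPM in knockout libraries 1 to 5. That is 0.0357% to 0.253% of a library, where the 12 ganglion cell markers took 1.87% to 3.25% in 9 libraries and 10.4% in knockout 3. In knockout 3, Nefl was 91% of that sum, and without Nefl the sum was 9306 TPM, the lowest of the 10 (10220 to 20090 TPM in the rest). Between 15 and 22 of the 38 reached 1 TPM in a library (39.5% to 57.9%), a share near that of all symbols in the table (43.3% to 54.0%). The 38 differed widely in level. Only 8 of them reached 1 TPM in all 10 libraries: Prkca, Prdm8 and Irx6 of the bipolar class, Glul, Clu, Vim and Dkk3 of the Muller class, and Pcna. Grm6, Id1 and Cdk1 were under 1 TPM in every library, and 16 more reached 1 TPM in 1 to 4 libraries.

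**Figure D1:**
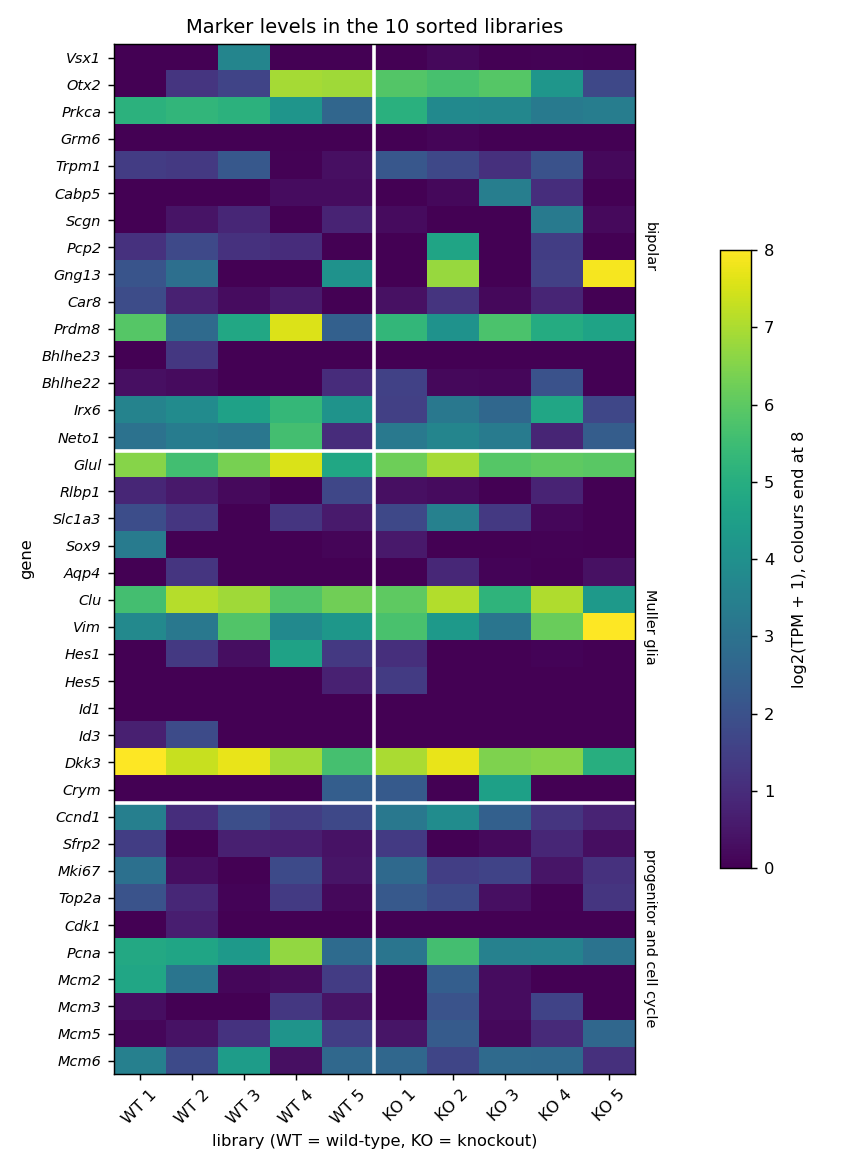
Level of each of the 38 markers (rows) in the 10 libraries (columns), as log2(TPM + 1), with colours ending at 8. The rows of Glul, Clu and Dkk3 are bright across all libraries, whereas most rows are dark except in 1 or a few libraries.

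Genes of the bipolar cell's light response were uneven. Grm6, the glutamate receptor of ON bipolar cells, was listed at 0 in 9 libraries and at 0.0749 TPM in knockout 2. Trpm1, the cation channel that this receptor controls, ranged from 0.0354 to 3.63 TPM with a median of 1.58 TPM and reached 1 TPM in 7 libraries. Gng13, a G protein gamma subunit of ON bipolar cells (chromosome 17, 25717171 to 25719406, plus strand, GRCm38, the assembly also called mm10), behaved differently. It was listed at 0 in wild-type 3 and 4 and knockout 1 and 3, and at 3.25, 6.65 and 15.9 TPM in wild-type 1, 2 and 5. In knockout 2, 4 and 5 it read 108, 1.85 and 239 TPM. Its high values were thus in 2 knockout libraries, while Grm6 was at or near 0 in the same 2 libraries and Trpm1 was at 2.30 and 0.122 TPM there. Knockout 2 and 5 also had the highest summed levels of a list of 12 microglia markers, 2721 and 3110 TPM, while wild-type 4, with Gng13 at 0, had 2317 TPM. The part of microglia in the Gng13 values was not tested.

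Of 4 genes for other signalling proteins of bipolar cells, Cabp5 and Car8 reached 1 TPM in 2 libraries each, Scgn in 1 and Pcp2 in 6. Cabp5, a calcium-binding protein of rod and some cone bipolar cells, was at 9.82 TPM in knockout 3 and 1.06 TPM in knockout 4 and at no more than 0.205 TPM in the other 8. Scgn, the calcium sensor secretagogin of some cone bipolar cells, was at 8.75 TPM in knockout 4 and at no more than 0.833 TPM elsewhere. Pcp2, a G protein modulator shared with Purkinje cells, was at 24.6 TPM in knockout 2, was listed at 0 in 4 libraries and did not exceed 2.37 TPM in the rest. Car8, a carbonic anhydrase-related protein, was at 0.00806 to 2.64 TPM. Each of these 4 genes had its highest value in a different library.

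Prkca, which encodes the protein kinase C alpha used to stain rod bipolar cells (chromosome 11, 107933387 to 108343928, minus strand), was measured in all libraries. Its levels were 34.3 TPM, 37.5 TPM, 34.3 TPM, 16.9 TPM and 5.22 TPM in wild-type libraries 1 to 5, and 32.5 TPM, 12.8 TPM, 11.9 TPM, 8.80 TPM and 9.51 TPM in knockout libraries 1 to 5. Knockout 1 was close below wild-type 1 to 3 and above wild-type 4 and 5, and the genotypes overlapped. The means were 25.7 ± 14 TPM and 15.1 ± 9.87 TPM (SD, n = 5 each), a difference of -0.62 on the log2(TPM + 1) scale, knockout minus wild-type (SE 0.73, 95% interval -2.15 to 0.90). In size this difference was smaller than its SE, and it was not called. The limma p was 0.402 before and 0.992 after Benjamini-Hochberg adjustment over 11744 genes.

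The transcription factors of the class fell into high and near-absent genes. Vsx1, which acts in cone bipolar cells, was at 11.4 TPM in wild-type 3 and no more than 0.127 TPM in any other library. Bhlhe23, needed for rod bipolar cells, was at 1.45 TPM in wild-type 2 and listed at 0 in the other 9. Bhlhe22, which acts in OFF cone bipolar and some amacrine cells, reached at most 3.08 TPM. Prdm8, a PR-domain factor of rod bipolar and amacrine cells (chromosome 5, 98167198 to 98188991, plus strand), was at 57.9, 5.85, 26.5, 189 and 4.42 TPM across wild-type 1 to 5. Across knockout 1 to 5 it was at 37.99, 16.1, 52.7, 29.1 and 24.2 TPM, inside the wild-type range.

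Irx6, an Iroquois homeobox factor of some OFF bipolar cells (chromosome 8, 92674288 to 92680956, plus strand), had the smallest p of the 19 markers that were tested. Wild-type libraries 1 to 5 held 11.1 TPM, 13.5 TPM, 23.1 TPM, 39.5 TPM and 16.4 TPM, and knockout libraries 1 to 5 held 1.83 TPM, 8.20 TPM, 5.36 TPM, 25.4 TPM and 2.23 TPM. Knockout 4 lay among the wild-type libraries, and the other 4 knockout libraries were below all of them. The means were 20.7 ± 11.4 TPM and 8.60 ± 9.72 TPM (SD, n = 5 each), and the log2 difference was -1.54 (SE 0.78, 95% interval -3.17 to 0.08). The limma p was 0.0614 before adjustment and 0.992 after Benjamini-Hochberg adjustment, so the difference did not pass. Neto1, an auxiliary subunit of glutamate receptors that many neurons make, ranged over 1.01 to 47.8 TPM among wild-type and over 0.780 to 11.6 TPM among knockout libraries (log2 difference -0.55, SE 0.87).

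Otx2 varied widely between libraries of 1 genotype. It encodes a homeobox factor that bipolar cells share with photoreceptors (chromosome 14, 48657677 to 48673819, minus strand). Otx2 was listed at 0 in wild-type 1, stood at 1.34 and 2.14 TPM in wild-type 2 and 3, and reached 120.3 and 115 TPM in wild-type 4 and 5. In knockout libraries 1 to 5 it was at 56.8 TPM, 49.95 TPM, 58.6 TPM, 17.6 TPM and 2.34 TPM. The 4 libraries with the lowest Otx2, wild-type 1 to 3 and knockout 5, were also the 4 with the lowest sum of a list of 14 rod photoreceptor genes (16.5 to 35.7 TPM, against 73.2 to 691 TPM in the other 6). Crx, a homeobox gene of that list, read 0.560 TPM, 0.837 TPM, 0.142 TPM and 0 TPM in those libraries (wild-type 1, 2, 3 and knockout 5). In the others Crx was at 2.17 to 33.5 TPM. Other bipolar genes were uneven in wild-type 4 and 5, where Otx2 was highest. Grm6, Vsx1 and Bhlhe23 were listed at 0 in both, but they were at 0 in 9, 7 and 9 libraries. Prdm8, Irx6 and Neto1 were, like Otx2, highest in wild-type 4 (189, 39.5 and 47.8 TPM). In wild-type 5 these 3 genes read 4.42, 16.4 and 1.01 TPM. The log2 difference of Otx2 between genotypes was 1.34 (SE 1.24, 95% interval -1.24 to 3.93; limma, Benjamini-Hochberg adjusted p = 0.992). It was 3.36 without wild-type 5, knockout 4 and knockout 5, again with no call (limma adjusted p = 0.988), and 0.51 without wild-type 1. The part of rods in the Otx2 values was not tested.

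**Figure D2:**
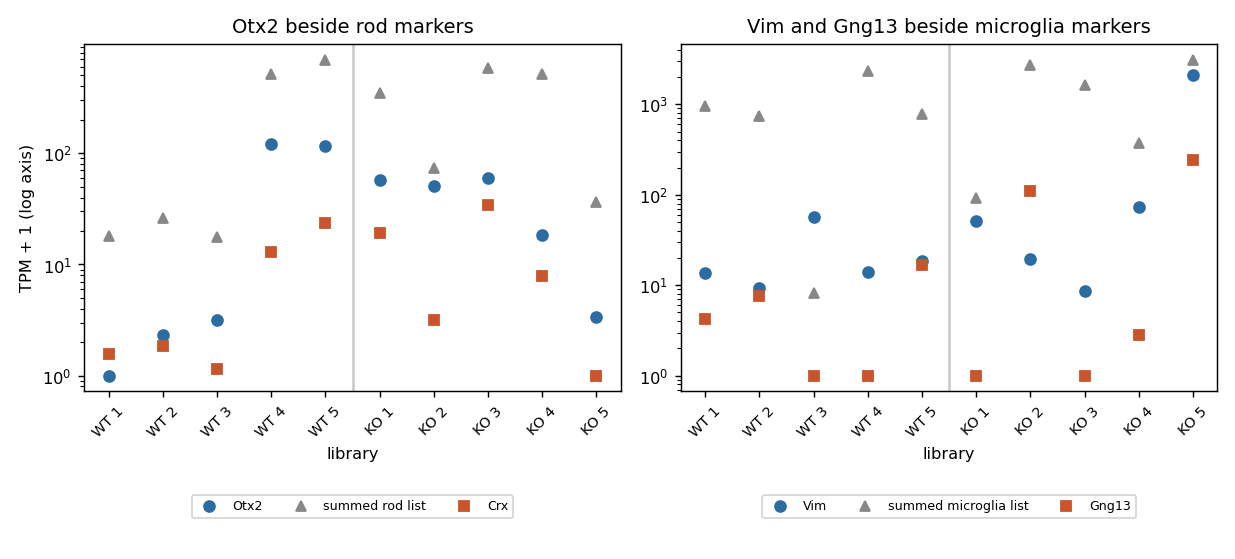
TPM + 1 on a log axis in each library: on the left Otx2 beside the summed rod list and Crx, a gene of that list, on the right Vim and Gng13 beside the summed microglia list. Otx2 is lowest in the 4 libraries in which the rod list is lowest, and Vim is at 2118 TPM in knockout 5, the library in which the microglia list is highest.

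The letters TAATCC, which OTX-family factors and Crx are known to bind, were searched on both strands in RefSeq promoters (250 bases before to 50 after a start, GRCm38.p6). Of the 15 bipolar genes, 11 had an entry, and 3 of these (Otx2, Trpm1 and Cabp5) held the letters in at least 1 promoter, against 8.14% of the 27025 genes with an entry. A match of this kind is a description of the letters and not a binding site. Cabp5 was at or under 0.205 TPM in every library but knockout 3 and 4, and so also in wild-type 4 and 5, where Otx2 was highest. In knockout 3 and 4 it was at 9.82 and 1.06 TPM, with Otx2 at 58.6 and 17.6 TPM. The Cabp5 window is shown because the gene has these letters in common with Otx2 and differed from it in level between libraries. It lies at chr7:13397959-13398036 on the plus strand and is written 5′ to 3′ with the match, 160 bases before the start, in capitals. A second match lies 41 bases before the start.

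Cabp5: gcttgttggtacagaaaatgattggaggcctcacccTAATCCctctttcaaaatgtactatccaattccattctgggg

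Among 10 further bipolar genes that were not members, 5 were under 1 TPM in every library (Cabp2 and Sebox listed at 0 in all 10). Grik1, a kainate receptor subunit also made by other neurons, was at 3.54 to 34.9 TPM, and Rgs11, a regulator of G protein signalling, at 0.861 to 273 TPM. Lrit3, a partner of the Trpm1 channel, was at 17.4 TPM in knockout 1 and no more than 0.709 TPM elsewhere. Of the 4 that were tested, 1 was higher and 3 were lower in knockout, and 0 passed (limma, smallest Benjamini-Hochberg adjusted p = 0.992).

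Muller glia markers also ranged from near 0 to over 100 TPM. Rlbp1, Aqp4 and Sox9 each reached 1 TPM in only 1 library. Rlbp1, the retinaldehyde-binding protein, did not exceed 2.28 TPM, and Aqp4, the water channel, did not exceed 1.33 TPM. Sox9, a glial and progenitor transcription factor, was at 9.07 TPM in wild-type 1 and no more than 0.465 TPM in the other 9. Slc1a3, the glial glutamate transporter GLAST, had a median of 1.36 TPM and its highest value, 10.5 TPM, in knockout 2. Crym, a thyroid hormone-binding protein, was listed at 0 in 7 libraries and was at 4.21, 3.81 and 22.5 TPM in wild-type 5, knockout 1 and knockout 3.

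The Notch and BMP response genes of the class were listed at 0 in 4 to 10 libraries each. Id1, an inhibitor of basic helix-loop-helix factors, was listed at 0 in all 10 libraries, and Id3, its relative, was at 0.615 TPM in wild-type 1, 2.53 TPM in wild-type 2 and 0 in the rest. Hes5, a Notch target, was above 0 in wild-type 5 and knockout 1 alone (0.653 and 1.64 TPM). Hes1, another Notch target, was at 23.5 TPM in wild-type 4 and no more than 1.53 TPM in any other library. The letters GTGGGAA, bound by the Notch effector RBPJ, stood on either strand of the RefSeq promoters of 1 of the 6 Muller genes with an entry, Hes5, against 7.25% of all genes with one.

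In contrast Glul, Clu and Dkk3 were well measured throughout. Glul, the glutamine synthetase of glia (chromosome 1, 153899944 to 153909723, plus strand), stood at 93.3 TPM, 46.8 TPM, 80.3 TPM, 188 TPM and 25.9 TPM in wild-type libraries 1 to 5, and at 74.8 TPM, 119.7 TPM, 58.6 TPM, 63.9 TPM and 61.5 TPM in knockout libraries 1 to 5. The knockout libraries lay inside the wild-type range, with means of 86.8 ± 62.3 and 75.7 ± 25.4 TPM (SD, n = 5 each) and a log2 difference of 0.05 (SE 0.61, 95% interval -1.23 to 1.33). Clu, the secreted chaperone clusterin, which neurons also make, ranged over 48.2 to 136 TPM among wild-type and over 19.0 to 133 TPM among knockout libraries, with means of 86.3 ± 37.9 and 76.5 ± 53.4 TPM (SD, n = 5 each).

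Dkk3, a secreted protein of the Dickkopf family (chromosome 7, 112116017 to 112159057, minus strand), had the highest median of the 38, 121 TPM. Wild-type libraries 1 to 5 were at 364 TPM, 160.0 TPM, 212 TPM, 118 TPM and 49.1 TPM, and knockout libraries 1 to 5 at 124 TPM, 210.0 TPM, 86.8 TPM, 93.4 TPM and 31.3 TPM. The lowest value of each genotype was in one of the 3 libraries that stood apart, wild-type 5 and knockout 5. The log2 difference was -0.68 (SE 0.65, 95% interval -2.03 to 0.67).

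Vim, the intermediate filament vimentin of glia, progenitors and many non-neural cells (chromosome 2, 13573927 to 13582826, plus strand), had 1 library far above the rest. It read 12.6 TPM, 8.27 TPM, 56.2 TPM, 12.98 TPM and 17.7 TPM in wild-type 1 to 5, and 50.6 TPM, 18.6 TPM, 7.63 TPM, 71.8 TPM and 2118 TPM in knockout 1 to 5. The other 9 overlapped between genotypes. The Muller class summed to 2230 TPM in that library and to 178 to 531 TPM in the rest, but without Vim the knockout 5 sum was 112 TPM, the lowest of the 10 (160.4 to 519 TPM in the rest). The log2 difference of Vim was 1.89 (SE 1.07, 95% interval -0.34 to 4.13; limma, Benjamini-Hochberg adjusted p = 0.992), and 0.65 without knockout 5. In knockout 5, Rlbp1, Slc1a3, Sox9, Hes1, Hes5, Id1, Id3 and Crym were all listed at 0, and Aqp4 was at 0.282 TPM. Apoe, a lipid carrier made by Muller glia and by microglia, was at 5651 TPM in the same library against 10.9 to 735 TPM elsewhere, and the microglia list was at its highest there. The microglia list was at 7.11 TPM in wild-type 3, its lowest, where Vim was at 56.2 TPM. The part of microglia in the Vim values was not tested.

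Of 10 further Muller genes outside the 38, 6 were tested, all 6 with a positive difference (median 0.81 on the log2 scale), and 0 passed (limma, smallest Benjamini-Hochberg adjusted p = 0.992). The potassium channel gene Kcnj10 and the transcription factor gene Sox8 did not reach 1 TPM in any library. Rax, a homeobox gene that progenitors, Muller glia and young photoreceptors share, reached 133 TPM in knockout 4, 57.4 TPM in wild-type 5 and 14.5 TPM in wild-type 4. It was listed at 0 in wild-type 1 to 3. A short list of retinal astrocyte markers (5 genes, with Gfap and Pax2) summed to 0 to 19.5 TPM.

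**Figure D3:**
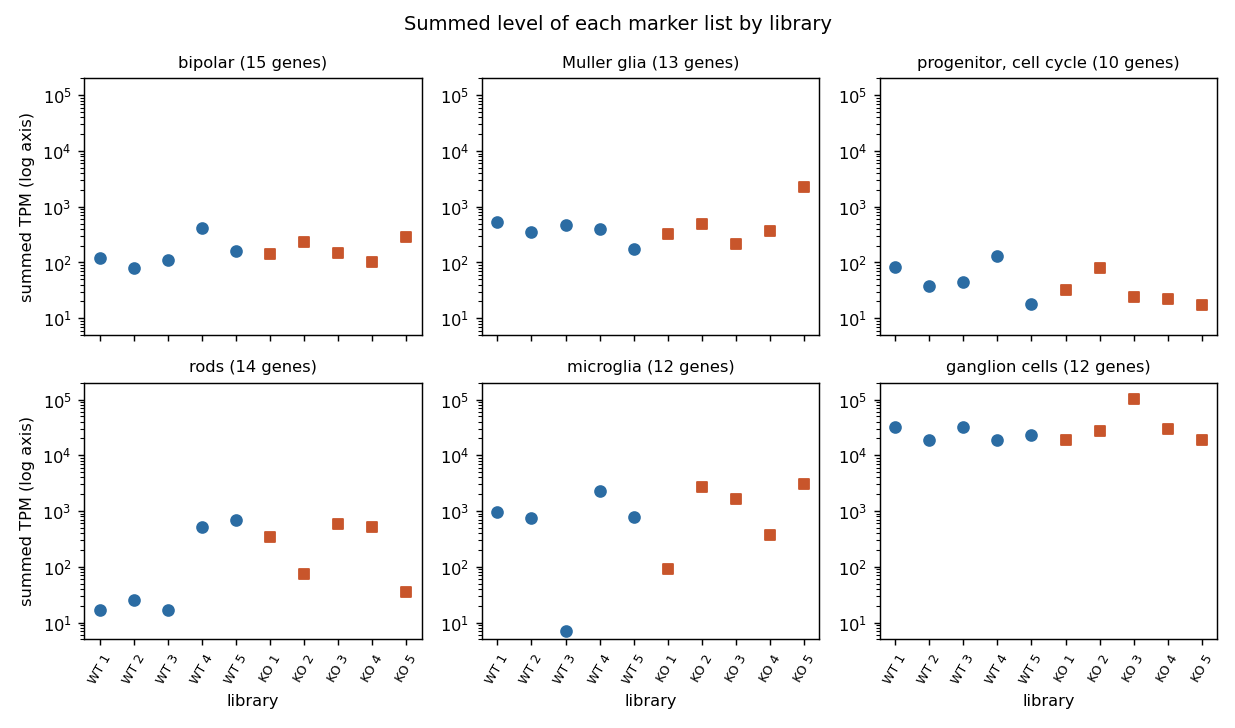
Summed TPM of each list in each library on a log axis, with circles for wild-type and squares for knockout. The bipolar (80.7 to 415 TPM) and progenitor (17.4 to 129 TPM) sums vary less than the rod and microglia sums, and the Muller sum is highest in knockout 5.

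Progenitor and cell-cycle genes summed to 84.7 TPM, 38.3 TPM, 44.1 TPM, 129 TPM and 18.3 TPM in wild-type 1 to 5, and to 32.5 TPM, 79.8 TPM, 23.6 TPM, 21.8 TPM and 17.4 TPM in knockout 1 to 5. Pcna was the largest share of the sum in 8 libraries (32% to 80.8%), Mcm6 in wild-type 3 and Ccnd1 in knockout 1. Markers of cycling cells were at low levels. Cdk1, the mitotic kinase, was listed at 0 in 9 libraries and at 0.588 TPM in wild-type 2. Mki67, the proliferation antigen Ki-67, was at 0 to 6.76 TPM, and Top2a, the topoisomerase of replicating cells, at 0.0379 to 3.73 TPM. Both were highest in wild-type 1 and knockout 1 (6.76 and 5.59 TPM for Mki67, 3.12 and 3.73 TPM for Top2a). Ccnd1, the cyclin that drives progenitors into S phase, was at 10.01, 8.17 and 13.8 TPM in wild-type 1, knockout 1 and knockout 2 and at 0.736 to 4.45 TPM in the other 7. Sfrp2, a secreted Wnt modulator of progenitors, did not exceed 1.74 TPM.

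Pcna, the DNA polymerase clamp, which also serves DNA repair (chromosome 2, 132249162 to 132253314, minus strand), was at 27.1 TPM, 25.1 TPM, 18.6 TPM, 104 TPM and 5.92 TPM in wild-type libraries 1 to 5, and at 7.64 TPM, 48.1 TPM, 10.4 TPM, 10.7 TPM and 7.26 TPM in knockout libraries 1 to 5. Its means were 36.2 ± 38.9 and 16.8 ± 17.6 TPM (SD, n = 5 each). The log2 difference was -0.90 (SE 0.80, 95% interval -2.56 to 0.77), and -0.38 without wild-type 4. The MCM genes, which encode subunits of 1 helicase ring, were highest in different libraries. Mcm6 was at 10.3, 2.47, 20.6, 0.247 and 5.45 TPM across wild-type 1 to 5, whereas Mcm5 was at 0.0906, 0.320, 1.28, 16.6 and 1.77 TPM in those libraries. Mcm2 reached 25.4 TPM in wild-type 1 and 7.69 TPM in wild-type 2 and no more than 4.3 TPM elsewhere. Mcm3 was at no more than 3.17 TPM. Wild-type 4, highest for Mcm5 and Pcna, was lowest for Mcm6.

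E2F factors are known to drive replication genes, and 4 forms of the letters they bind (TTTCCCGC, TTTCGCGC, TTTGCCGC and TTTGGCGC) were searched on both strands of the RefSeq promoters. Of the 10 progenitor and cell-cycle genes 9 had an entry, and 4 of them (Cdk1, Mcm3, Mcm5 and Mcm6) held at least 1 form, against 2.60% of all genes with an entry. The windows below are shown because genes with these letters in common differed in level from library to library. They are written 5′ to 3′ on the gene's strand with 1 match in capitals. In Mcm6 and Mcm5 a second match on the opposite strand overlaps it, and Mcm6 holds a further match 47 bases before its start. They lie at chr1:128359772-128359851 (minus strand), chr8:75109320-75109399 (plus strand) and chr10:69353000-69353079 (minus strand), with the first capital 110, 153 and 131 bases before the start.

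Mcm6: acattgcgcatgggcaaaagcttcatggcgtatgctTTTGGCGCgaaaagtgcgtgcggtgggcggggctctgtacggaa

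Mcm5: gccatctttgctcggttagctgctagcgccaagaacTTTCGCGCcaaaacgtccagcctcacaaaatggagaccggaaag

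Cdk1: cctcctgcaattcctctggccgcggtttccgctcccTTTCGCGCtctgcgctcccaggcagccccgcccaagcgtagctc

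Of 16 further progenitor and cell-cycle genes 6 were tested, 2 higher and 4 lower in knockout, and 0 passed (limma, Benjamini-Hochberg adjusted p = 0.992 for each). The cyclin gene Ccna2 was at 0.372 to 34.6 TPM and the nucleotide synthesis gene Tyms at 1.12 to 12.01 TPM. The mitotic genes Ccnb1, Aurkb and Cdc20 each reached 1 TPM in 1 library, and so did Fgf15, a growth factor of progenitors. Other mitotic genes were higher. Ube2c reached 1 TPM in 7 libraries and 10 TPM in 4, with 45.8 TPM in wild-type 4, and Birc5 was at 5.57 TPM in knockout 4 and 35.1 TPM in knockout 5. The Notch receptor gene Notch1 was at 47.8 and 89.4 TPM in knockout 1 and 5 and no more than 4.04 TPM elsewhere.

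Between genotypes no marker that could be tested was called. The test covered genes that reached 1 TPM in 5 or more libraries, which took in 19 of the 38 and left out 19 (7 bipolar, 8 Muller and 4 progenitor genes). Of the 19, 0 were called at a limma Benjamini-Hochberg adjusted p under 0.05, where 0 of all 11744 tested genes (0%) were called. Before adjustment, 0 of the 19 had a p under 0.05, against 3.31% of all tested genes. Under 8 of the 20 alternatives 1 or 2 of Irx6, Otx2 and Vim had such a p (0.0109 to 0.0497), with limma adjusted p-values of 0.692 to 1. In 0 of the 19 were the genotypes free of overlap, against 0.502% of all. A count of 0 among 19 is near these shares. The median SE of the 19 was 0.78 on the log2 scale, equal to that of all tested genes, and a p that misses the threshold does not show that the genotypes were alike.

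In direction, 11 of the 19 had a positive and 8 a negative difference. Among the whole 11744 genes, 67.4% were negative. With each library centred on its median the split was 13 higher and 6 lower, with 46.1% of all genes lower, and after quantile normalization 12 higher and 7 lower, with 52.3% lower. The median log2 difference was 0.23 for the 8 tested bipolar genes, 0.05 for the 5 Muller genes and 0.04 for the 6 progenitor genes, beside -0.31 for all tested genes. All 3 class medians were negative without wild-type 5 and without knockout 2, and the Muller and progenitor medians also without wild-type 2. Centring moved the median of all genes to 0.07 and the class medians to 0.61, 0.42 and 0.41. Quantile normalization moved it to -0.04 and the class medians to 0.51, 0.26 and 0.22. Without the 3 libraries that stood apart, the class medians were 0.05, -0.16 and 0.11 beside -0.22 for all tested genes, and 9 of the 19 were higher.

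**Figure D4:**
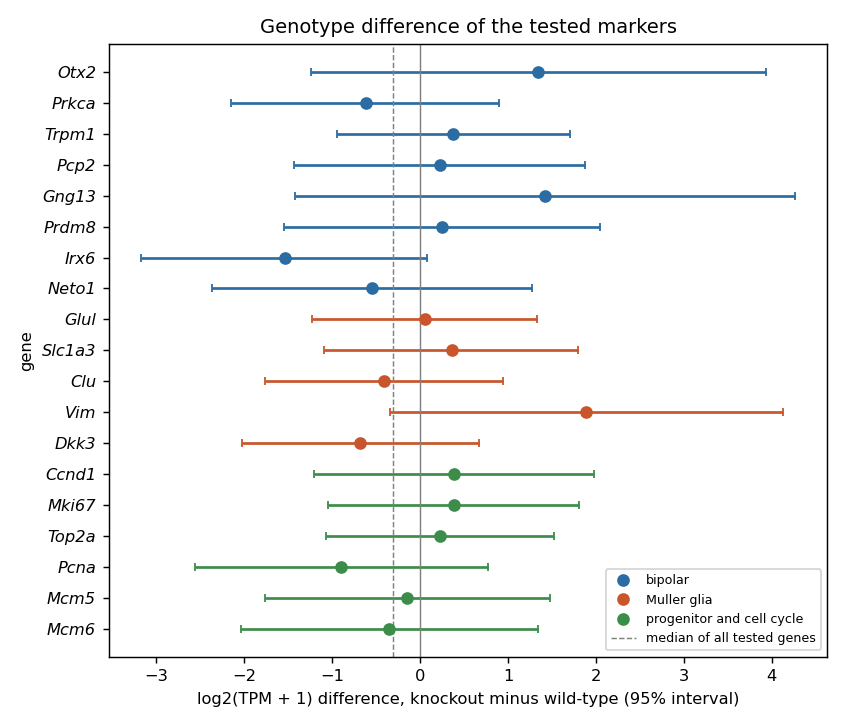
Difference in log2(TPM + 1), knockout minus wild-type, for the 19 tested markers (points) with 95% intervals (bars). All 19 intervals include 0, and the dashed line marks the median of all tested genes at -0.31.

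The tested markers differed in how much they varied between libraries of 1 genotype. The residual SD of log2(TPM + 1) was 0.80 for Glul, 0.85 for Trpm1 and 0.88 for Top2a, and 2.98 for Gng13, 2.66 for Otx2 and 2.26 for Vim. Glul was at 25.9 to 188 TPM, but Trpm1 and Top2a did not exceed 3.63 and 3.73 TPM. At such levels the offset of 1 narrows the scale, so a small SD does not show a steady level. The median residual SD was 1.46 for bipolar, 1.03 for Muller and 1.18 for progenitor genes, beside 1.20 over all tested genes. It was 2.22 for the rod list, 2.36 for the microglia list and 1.08 for the ganglion cell list. These medians also include genes at low levels. Wild-type 4, apart on the second principal component, was the highest library for 8 of the 38, wild-type 1 and 2 for 6 each and knockout 2 for 5, and no library was highest for most of them.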

How the data were processed

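The authors deposited log10(TPM + 1) values, 1 column per sample. Undoing a base of 10 and an offset of 1 gave sums of 1000000 TPM in each library. Per the submitters' processing notes, TopHat2 2.0.10 and Cufflinks were used with mm10. Gene annotation and read assignment, strand included, were not given in the sources used here, and overlapping genes may share reads. Of 23746 entries, 26 with a number for a symbol were left out (0.0438% to 0.198% of the TPM), and 240 symbols on several lines were summed. Values were set on the log2(TPM + 1) scale, which understates changes of low genes, and fitted over all 11744 tested genes with limma 3.58.1 (R 4.3.3), with 1 coefficient for genotype, a trended prior variance and p-values adjusted by Benjamini-Hochberg. The fit was tested on simulated data, drawn for each gene independently with a normal spread and no floor at 0. That test therefore does not cover genes listed at 0. Alternatives covered the pseudocount, the filter, scaling, a replicate block, library weights, the trend and each library left out. The fit without the 3 libraries that stood apart was added after seeing the data. The markers and lists were chosen with earlier results of these data known. All 38 markers could be named, and of other lists the genes with the highest medians or smallest p. Genes outside that rule (Crx, Cabp2, Sebox, Lrit3, Kcnj10, Sox8, Gfap, Pax2, Ccnb1, Aurkb, Cdc20, Birc5, Fgf15 and Notch1) were named after their values were seen. So were Rbpms, Pou4f1, Pou4f2, Isl1, Thy1, Gap43 and Tubb3 of the ganglion cell list, which are also outside that rule. Means are given only for genes above 0 in every library. Promoters came from RefSeq (GRCm38.p6), with entries for 26 of the 38, and gene positions from GENCODE M21 (GRCm38).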

Additional observations from a re-analysis of the deposited data

Results flagged for a closer look

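Within a genotype, 1 library lay far from the other 4 on the log2 scale in 11 of the 61 groups of 5 values whose highest was at least 1 TPM. In wild-type, these were Vsx1 at 11.4 TPM in wild-type 3, Bhlhe23 at 1.45 TPM and Aqp4 at 1.33 TPM in wild-type 2, Sox9 at 9.07 TPM in wild-type 1 and Crym at 4.21 TPM in wild-type 5. In knockout, they were Prkca at 32.5 TPM, Hes1 at 1.11 TPM and Hes5 at 1.64 TPM in knockout 1, Pcna at 48.1 TPM and Mcm2 at 4.3 TPM in knockout 2, and Scgn at 8.75 TPM in knockout 4. All 11 were high values. The groups of Vsx1, Bhlhe23, Sox9, Aqp4, Hes1, Hes5, Crym, Scgn and Mcm2 held libraries listed at 0. Chance flags about 1 in 20 groups of evenly spread values. That rate does not apply to values resting on a floor of zeros, so the number of these groups is no sign of an excess.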

How the results depend on the processing

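No marker was called under any of the 20 alternatives in which it was tested (smallest limma adjusted p = 0.651), and 10 of the 19 kept their sign in each. The 5 TPM filter tested 11 of the 19, without Trpm1, Gng13 and Mki67 of those 10. Signs of the other 9, none called, turned as follows. Pcp2 was -0.67 with a pseudocount of 0.1 and Prdm8 -0.02 with one of 10. Mcm5 was 0.23 and Mcm6 0.02 with median centring, and Mcm5 0.01 with quantile normalization and 0.16 with library weights. Without wild-type 5, knockout 4 and knockout 5 together, Prdm8 was -0.21 and Glul -0.16. With single libraries left out, the differences ran from -0.64 to 0.53 for Pcp2, -0.31 to 0.97 for Prdm8, -1.11 to 0.04 for Neto1, -0.30 to 0.40 for Glul, -0.19 to 0.69 for Slc1a3, -0.01 to 0.77 for Ccnd1, -0.05 to 0.51 for Top2a, -0.49 to 0.52 for Mcm5 and -0.91 to 0.12 for Mcm6. The number of called genes over the whole table was 1 with a filter of 5 TPM, 3 with library weights, 1 without a trend and 0 to 1 with single libraries left out (1 without wild-type 3, 4 or 5). The bipolar median moved to -0.16 with a pseudocount of 0.1, -0.55 with the 5 TPM filter and 0.61 with median centring (-0.17 to 0.36 with single libraries left out). The Muller median moved to -0.18 with no filter, -0.18 with the 5 TPM filter, 0.42 with median centring, 0.26 with quantile normalization and -0.16 without wild-type 5, knockout 4 and knockout 5 (-0.30 to 0.40 with single libraries left out). The progenitor median was -0.62 with the 5 TPM filter, -0.04 with a pseudocount of 10 and -0.12 with no filter (-0.12 to 0.30 with single libraries left out). The bipolar, Muller and progenitor medians were -0.17, -0.30 and -0.05 without wild-type 5, -0.15, -0.19 and -0.12 without knockout 2, and 0.09, -0.10 and -0.12 without wild-type 2. At a limit of 5 TPM, 9 to 14 of the 38 markers were detected in a library. The cause of these shifts was not tested, except that both filters change which genes are counted. Replicate numbers were not shown to pair the samples (correlations of -0.032 to 0.364 between same-numbered libraries, with a library's best match its own number for numbers 1 and 2 alone). With the replicate block 0 genes were called, 830 had an unadjusted p under 0.05, and the class medians were 0.23, 0.05 and 0.04. Depth is unknown, so no detection limit could be set for the listed zeros.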
